A study of Danio rerio with 17 samples.

Results

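Zebrafish embryos carrying a lipid load in the yolk were compared directly with embryos kept in glucose. The 2 groups were 6 RNA-seq libraries titled FFA and 6 titled glucose, which are 12 of the 17 libraries of the series. The other 5 libraries are untreated controls and entered neither the fit nor the choice of genes. All 12 pools were whole embryos of the AB line, a standard laboratory strain. Each pool held 10 embryos and was frozen at 72 h after fertilisation. The glucose pools had been exposed to 3% glucose from 24 h. The FFA pools had received, at 24 h, a yolk injection of fluorescent BODIPY-labelled lipid in canola oil at 1 mg/ml. Nutrient and route therefore differ together, since none of the 12 pools had an injection of oil alone or an exposure to another sugar, and lipid against glucose cannot be told apart from injection against immersion.

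Groups follow the sample titles. For 11 of the 12 libraries GEO's treatment tag contradicts the title: 5 glucose libraries are tagged as FFA, 5 FFA libraries as glucose, and glucose 1 as control. The tags thus nearly exchange the groups. Grouped by tag, 381 genes were called, against 2483 by title, and all 2483 had the opposite sign. The directions given for called genes follow the titles and would reverse if the tags were right. Counts within genes ranged from 10208640 to 16745675 per library. Reads on the no-feature line of the counts are called reads outside genes below. How the counting assigned them is not given in the sources. They took 33.4% of counts in the FFA libraries and 32.1% in the glucose libraries. The difference in this share was 1.25 percentage points (exact permutation test, 2-sided p = 0.314). With this share as a covariate, 3540 genes were called, 1778 of them higher in the FFA pools. The library glucose 4 stood apart from the other 5 glucose libraries on the first 2 principal components, which held 44.2% and 23.2% of the variance. It lay at 13.5 on the first, where the other glucose libraries lay between -34.3 and -12.7. FFA 1 and FFA 6 also stood apart from the other 4 FFA libraries, at 3.87 and -1.92 on the first against 19.8 to 33.4, and at 21.2 and 22.4 on the second against -1.35 to 7.3. Without both, 2562 genes were called. Of the 19 tissue markers chosen to check the label whole embryo, 18 had a row in the files, and all 18 were counted in all 12 libraries.

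A yolk-fed zebrafish embryo draws its lipid from the yolk through a syncytial layer that assembles lipoproteins, while liver, exocrine pancreas and intestine become functional around the age sampled here. Glucose in the water enters the whole embryo and reaches the liver, where glucokinase and gluconeogenic enzymes respond to it. Embryos also carry light-sensitive clocks in most of their cells, and respond to injury or stress with AP-1 transcription factors, heat shock proteins and inflammatory cytokines.

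Differences between the groups were many and mostly small. Of 13398 genes tested, 2483 passed an adjusted p of 0.05 (18.5%): 1177 were higher in the FFA pools (8.78%) and 1306 were lower (9.75%). At 2-fold or more there were 202 (1.51%), of which 159 were higher (1.19%) and 43 lower (0.321%). Values of the 12 libraries did not overlap between groups for 1160 genes (8.66%), of which 602 were higher in the FFA pools (4.49%) and 558 lower (4.16%). The median log2 fold change of all genes tested was 0.001. Whether the pools are separate clutches, or whether the 2 groups share parents, is not stated in the labels. The p-values therefore measure only the spread between these pools, and parentage cannot be told apart from treatment. Without glucose 4 the number of genes called was 3910, and without FFA 4 it was 1737. Changes below are FFA against glucose, as log2 fold change ± standard error, and levels are CPM, the count of a gene scaled to a common library size, on which each gene is compared only with itself. Where 3 CPM values stand together, they are the lowest, the median and the highest of the 6 pools of a group.

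Gene lists for pathways and tissues are described next. They were chosen with earlier results of these data known, so their rates are not a test against all genes. Counts of called members below stand beside 8.78% higher and 9.75% lower over all genes tested. Members of the lists for exocrine pancreas, AP-1 and other immediate early genes, melanin synthesis, intestine and inflammation were called higher in the FFA pools at rates from 44.4% to 67.9%. Members of the lists for DNA replication, light-induced genes and mitosis were called lower at rates from 48.2% to 57.6%. Of 82 ribosomal protein genes, edgeR's quasi-likelihood test called 0, as did DESeq2 and limma-voom, and 1 had an unadjusted p under 0.05. With the share of reads outside genes as a covariate, 31 of them were called higher. In bulk RNA, fewer cells of a type and less RNA per cell cannot be told apart.

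**Figure D1:**
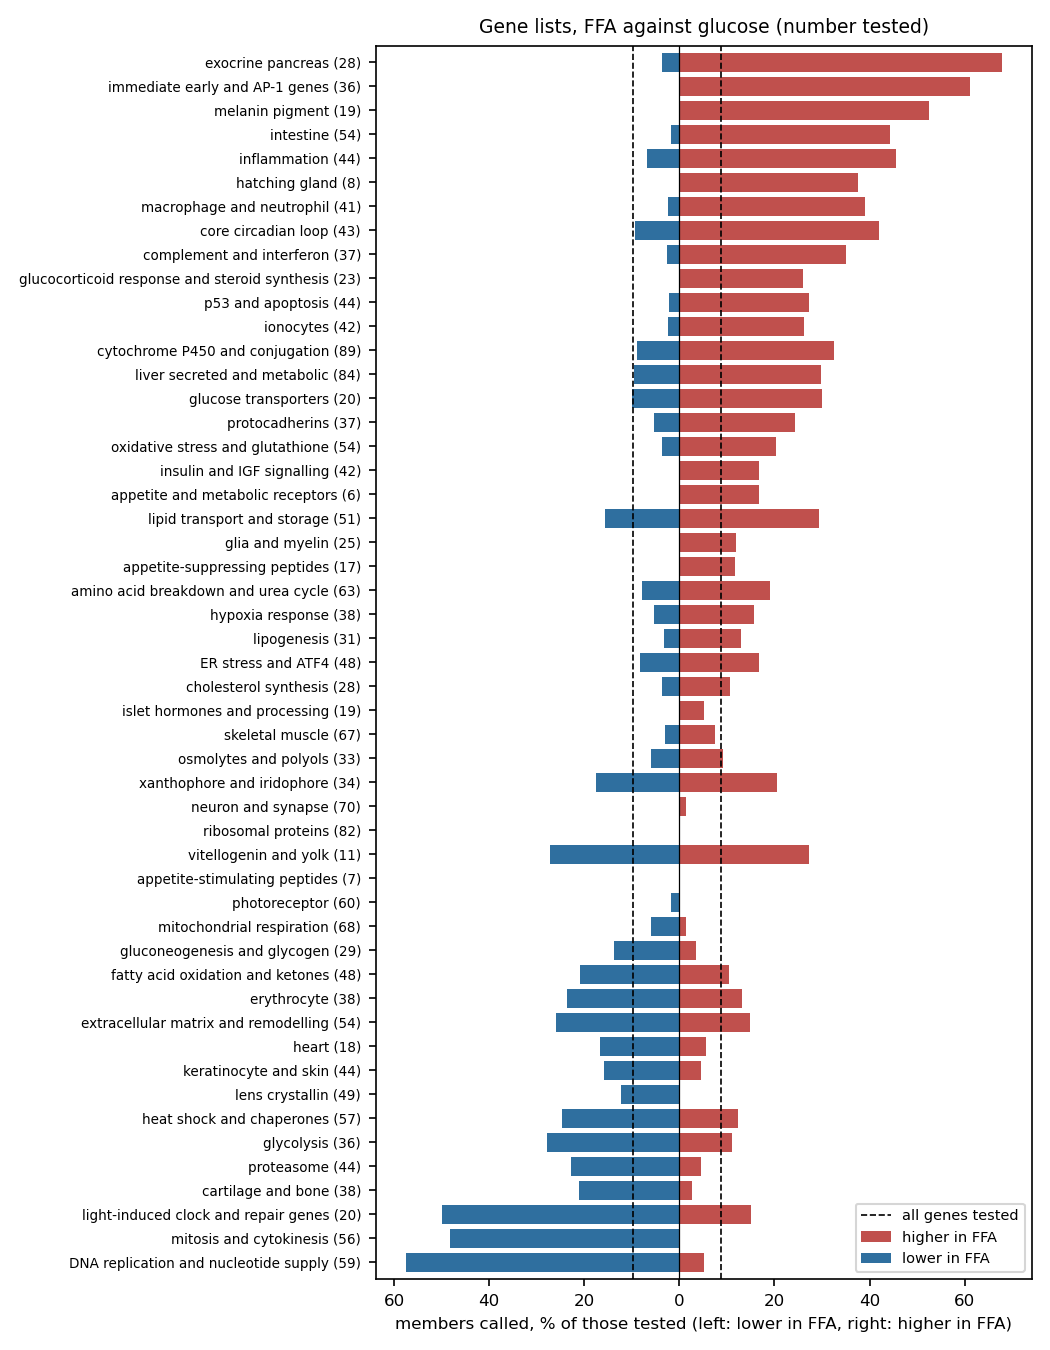
Share of the tested members of each gene list (number tested in brackets) called higher (right, red) or lower (left, blue) in the FFA pools. The x axis is percent of the members tested, and the dashed lines mark 8.78% and 9.75%, the shares over all genes tested. Exocrine pancreas, with 67.9% of members higher, and DNA replication, with 57.6% lower, lie at the ends. Lists were chosen with earlier results of these data known.

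The sharpest differences in the downward direction were in genes that light switches on. In zebrafish, light induces period and cryptochrome genes of the clock together with DNA repair genes, many of them through D-box elements bound by PAR-bZIP factors such as tefa. Of 20 such genes tested, 10 were lower in the FFA pools and 3 higher, with a median log2 fold change of -0.20. Summed over the list, the FFA pools held 790 to 912 CPM and the glucose pools 1260 to 1320 CPM. Whether the 2 groups were handled side by side is not stated in the labels. Differences in light or hour of collection were not tested, for these genes or the other clock genes below.

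The clock gene per2, a light-induced repressor of the circadian loop, measured 18.8, 28.1 and 41.7 CPM in the FFA pools and 163, 169 and 179 CPM in the glucose pools. It was 5.84-fold lower in the FFA pools (-2.55 ± 0.16, adjusted p = 5.14e-07), and the highest FFA pool lay far below the lowest glucose pool. The photolyase gene cry5, whose product repairs ultraviolet lesions in light, measured 3.02, 3.69 and 6.03 CPM against 19.9, 22.8 and 24.4 CPM (-2.53 ± 0.13, adjusted p = 1.28e-07). All FFA pools were low, and FFA 6 was the highest of them. For cry-dash, a second light-dependent photolyase gene, the values were 19.9, 20.7 and 22.1 CPM against 50.3, 54.1 and 59.4 CPM (-1.39 ± 0.05, adjusted p = 2.58e-09). The spread within each group was narrow beside the gap between them.

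The damage sensor ddb2, which recognises ultraviolet lesions for nucleotide excision repair, was 3.01-fold lower in the FFA pools, at 8.37, 9.09 and 9.84 CPM against 23, 28 and 29.9 CPM (-1.59 ± 0.08, adjusted p = 3.45e-08). Its partner in lesion recognition, xpc, was lower as well (-1.04 ± 0.06), as was neil1, a glycosylase of base excision repair (-0.82 ± 0.10). The WD-repeat gene wdr76, which was not on the list, measured 4.22, 4.89 and 6.66 CPM against 15.5, 16.9 and 20.9 CPM (-1.82 ± 0.11, adjusted p = 5.14e-07). Neither ddb2 nor wdr76 overlapped between groups, which was required of genes named for the size of their change. The D-box factor tefa itself was at 94.3, 109 and 127 CPM against 216, 234 and 250 CPM (-1.10 ± 0.07, adjusted p = 4.95e-07). The light-induced list was not uniform: tefb (0.42), hmox1a (0.43) and cry4 (0.19) were higher in the FFA pools.

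**Figure D2:**
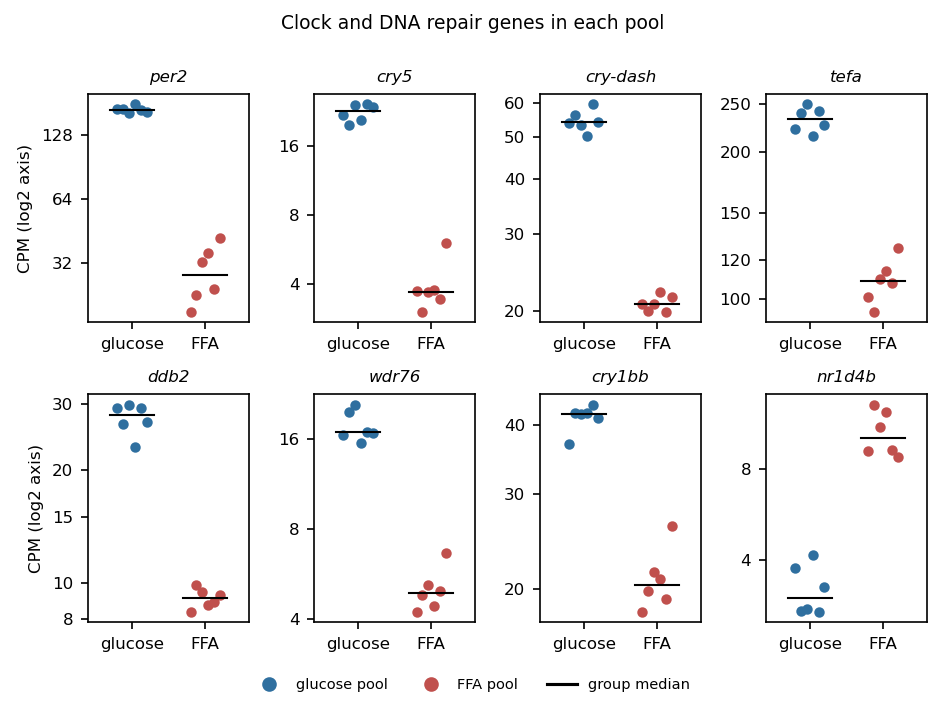
CPM of 8 clock and DNA repair genes in each pool, on log2 axes that do not start at 0. Points are pools (blue glucose, red FFA) and bars are group medians. In each of the 8 genes the groups are separate; nr1d4b is the one that is higher in FFA.

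Other clock genes moved mostly the opposite way. Of 43 genes of the core circadian loop, 18 were higher in the FFA pools and 4 lower, with a median of 0.19. Without FFA 3 the number higher was 9. The nuclear receptor gene nr1d4b, of the Rev-erb group that represses clock transcription, measured 8.73, 10.1 and 13 CPM against 2.71, 3.01 and 4.18 CPM, with no overlap (1.69 ± 0.15, adjusted p = 1.18e-05). Its relative nr1d4a was higher too (1.25 ± 0.32). The period gene per1a (0.59) and aanat2, which encodes the melatonin-forming enzyme of the pineal gland and retina (0.74), were also higher. The 4 lower genes were tefa, cry1bb, cry1ba (-0.58) and per3 (-0.52). Of these, cry1bb measured 18.2, 20.4 and 26.2 CPM against 37, 42.1 and 43.7 CPM (-0.98 ± 0.08, adjusted p = 8.08e-06).

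Immediate early genes, which cells transcribe within minutes of a stimulus, were higher in the FFA pools. Of 36 tested, 22 were higher, with a median of 0.74, and 34 of the 36 had a positive fold change. The AP-1 subunit gene junba measured 26.6, 47.1 and 68.4 CPM against 8.45, 11.2 and 13.1 CPM. It was 4.52-fold higher in the FFA pools (2.18 ± 0.20, adjusted p = 1.95e-05), and every FFA pool exceeded every glucose pool. Another AP-1 subunit, fosl1a, ranged from 16.8 to 91.7 CPM in the FFA pools and from 2.58 to 13.8 CPM in the glucose pools (2.57 ± 0.46, adjusted p = 0.00223). The stress factor atf3 was at 50.3, 60.1 and 79.9 CPM against 17.6, 24.3 and 30.6 CPM, again without overlap (1.31 ± 0.14, adjusted p = 6.92e-05). For egr1, a zinc finger factor of the same class, the pools did overlap, at 40.2, 122 and 179 CPM against 26.6, 32.1 and 41.9 CPM (1.89 ± 0.28, adjusted p = 0.00062).

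The pools were uneven in this response. Summed over the immediate early list, FFA 1 held 1990 CPM, inside the glucose range of 1500 to 2170 CPM, while the other 5 FFA pools held 2740 to 3390 CPM. FFA 1 was also the lowest FFA pool for dusp1, a phosphatase that switches off MAP kinases, which measured 119, 219 and 234 CPM against 70.1, 114 and 129 CPM (0.92 ± 0.17, adjusted p = 0.00298).

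Heat shock genes split into a few that were strongly higher and more that were modestly lower. Of 57 chaperone genes, 7 were higher (12.3%) and 14 lower (24.6%), against 8.78% and 9.75% of all genes tested. Their median was -0.06. With the share of reads outside genes as a covariate and the replicate number as a block, the counts turned to 12 higher and 7 lower. The inducible chaperone gene hsp70l measured 5.18, 25.1 and 66.1 CPM against 0.407, 1.26 and 1.83 CPM (4.53 ± 0.71, adjusted p = 0.000919). All 6 FFA pools were above the glucose range, but FFA 1, FFA 4 and FFA 6, at 53, 40.4 and 66.1 CPM, lay well above FFA 2, FFA 3 and FFA 5, at 7.91, 5.18 and 9.86 CPM. Without FFA 1 and FFA 6 the log2 fold change of hsp70l was 3.60 (adjusted p = 0.00248). The tandem copies hsp70.1 (4.25), hsp70.2 (3.16) and hsp70.3 (3.96) were also higher. For hsp70.3 the same 3 FFA pools were high, at 197, 71.2 and 184 CPM, with the other 3 between 25.5 and 31.8 CPM and the glucose pools between 4.31 and 7.56 CPM.

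The HSP90 system went in both directions. Its muscle-rich gene hsp90aa1.1 was lower, at 91.7, 109 and 127 CPM against 167, 177 and 223 CPM (-0.77 ± 0.09, adjusted p = 0.000135). The co-chaperone gene ahsa1a, which stimulates the HSP90 ATPase, was 2.55-fold lower, at 8.72, 14.5 and 24.9 CPM against 31.1, 36.8 and 57.2 CPM (-1.35 ± 0.21, adjusted p = 0.000968). In contrast hsp90aa1.2 was higher (1.14 ± 0.20), at 135 to 285 CPM against 73.2 to 124.5 CPM. The heat shock factor gene hsf2 was lower with little spread, at 48.9, 55.1 and 58 CPM against 74.3, 76.8 and 80.4 CPM (-0.50 ± 0.05, adjusted p = 1.95e-05). Lower too was serpinh1b, the collagen chaperone (-0.43 ± 0.05).

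**Figure D3:**
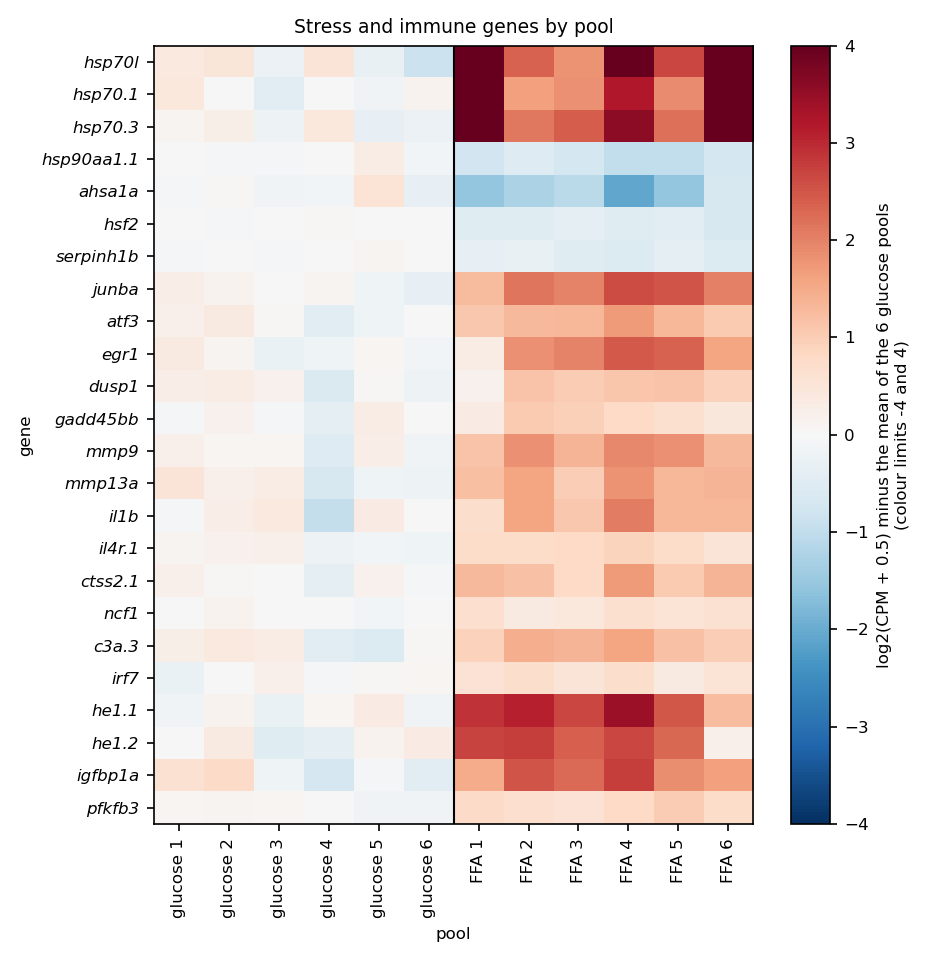
Heat map of 24 genes of the stress, immune and related lists (rows) in each pool (columns). Colour is log2(CPM + 0.5) minus the mean of the 6 glucose pools, cut at -4 and 4. The 3 hsp70 genes shown are highest in FFA 1, FFA 4 and FFA 6, while junba, mmp9 and c3a.3 are raised in all FFA pools, and he1.2 in FFA 6 is near the glucose level.

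Inflammatory genes were higher in the FFA pools in 20 of 44 cases and lower in 3, with a median of 0.35. The cytokine gene il1b was at 1.45, 2.5 and 4.4 CPM against 0.115, 0.821 and 1.06 CPM, with every FFA pool above every glucose pool (1.88 ± 0.36, adjusted p = 0.00352). The matrix metalloproteinase gene mmp9, a standard marker of wounding in zebrafish, was at 29.2, 40.4 and 50.6 CPM against 8.99, 13.8 and 15.7 CPM (1.61 ± 0.17, adjusted p = 5.59e-05). The collagenase gene mmp13a was 2.68-fold higher, at 12.6, 16.3 and 22.3 CPM against 3.72, 6.28 and 8.85 CPM (1.42 ± 0.19, adjusted p = 0.000406). Chemokine genes cxcl8b.1 (1.57) and ccl20a.3 (1.42) and the acute phase regulators cebpb (1.23) and socs3a (0.97) were higher as well. The 3 lower members were ptgesl (-0.43), tnfrsf1b (-0.35) and alox12 (-0.31).

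Some macrophage and neutrophil markers were also higher in the FFA pools. Of 41 macrophage and neutrophil genes, 16 were higher and 1 lower, with a median of 0.31, and their summed level was 753 to 898 CPM in the FFA pools and 627 to 788 CPM in the glucose pools, so the sums overlap. Without FFA 1 and FFA 6 the number higher was 10. The lysosomal protease gene ctss2.1 was at 10.1, 14 and 19.5 CPM against 4.12, 5.78 and 6.5 CPM (1.32 ± 0.15, adjusted p = 0.000141). The NADPH oxidase subunit gene ncf1 was at 11.1, 12.9 and 13.9 CPM against 7.87, 8.41 and 9.3 CPM (0.58 ± 0.08, adjusted p = 0.000357). The part of cell number in the inflammatory result was not tested. Of 37 complement and interferon genes, 13 were higher (35.1%) and 1 lower (2.7%), against 8.78% and 9.75% of all genes tested. Their sums overlapped, at 3040 to 3560 CPM in the FFA pools and 2130 to 3590 CPM in the glucose pools. The number higher was 7 without FFA 4 and 8 without glucose 2 or glucose 6. Among them c3a.3, a copy of the central complement component, was at 199, 255 and 319 CPM against 72.9, 117 and 139 CPM (1.23 ± 0.17, adjusted p = 0.000475).

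Hatching enzyme genes, normally silent once the embryo has left the chorion, were higher in the FFA pools. The astacin protease gene he1.1 measured 3.42, 11.1 and 17.7 CPM against 0.894, 1.15 and 1.61 CPM (3.20 ± 0.33, adjusted p = 6.51e-05). Its neighbour he1.2 measured 1.35, 8.81 and 10.5 CPM against 0.65, 1.19 and 1.57 CPM (2.80 ± 0.40, adjusted p = 0.000517). FFA 6 was the lowest FFA pool for both and lay inside the glucose range for he1.2. Of the 8 hatching gland genes tested, these and cd63 (0.35) were called, all higher (37.5%, against 8.78% of all genes tested).

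Cell proliferation genes were lower in the FFA pools by small amounts across most of the machinery. Of 59 genes for DNA replication and nucleotide supply, 34 were lower and 3 higher, with a median of -0.26, and 54 of the 59 had a negative fold change. The polymerase epsilon subunit gene pole was at 35.7, 38.3 and 40.1 CPM against 51.8, 55.5 and 60.5 CPM, without overlap (-0.54 ± 0.05, adjusted p = 1.63e-05). The replicative helicase genes mcm3 (-0.70), mcm6 (-0.43), mcm4 (-0.37), mcm5 (-0.36) and mcm7 (-0.23), the sliding clamp pcna (-0.33) and the histone chaperone subunit chaf1b (-0.46) were all lower. The exceptions were the thymidine kinase gene tk1, rrm2 (0.45), which encodes a ribonucleotide reductase subunit, and orc2 (0.27). For tk1 the values were 15.7, 25.7 and 29.5 CPM against 9.1, 10.7 and 11.2 CPM (1.23 ± 0.13, adjusted p = 5.59e-05).

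For mitosis and cytokinesis, 27 of 56 genes were lower. All 56 fold changes were negative, between -0.41 and -0.05, with a median of -0.20. Left-out libraries changed the count of lower genes to 15 without glucose 6, 16 without FFA 3 and 17 without FFA 4 or glucose 3, and to 16 without FFA 1 and FFA 6 together. The condensin gene smc4 was at 85, 92.7 and 96.3 CPM against 108, 113 and 120 CPM (-0.31 ± 0.04, adjusted p = 0.000524). Lower members included the kinetochore genes spc24 (-0.41) and spc25 (-0.39) and the mitotic kinase plk1 (-0.28). Genes of the p53 and apoptosis list were higher in 12 of 44 cases (27.3%) and lower in 1 (2.27%). The shares over all genes tested were 8.78% and 9.75%. The higher genes included gadd45bb (0.74), btg2 (1.29) and sesn1 (0.43). The lower gene was casp3b, an executioner caspase (-0.66 ± 0.12).

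Genes of the exocrine pancreas were higher in the FFA pools in 19 of 28 cases and lower in 1. Their median was 0.55, and their summed level was 4220 to 5910 CPM in the FFA pools against 2620 to 3610 CPM in the glucose pools. The elastase gene ela2l was at 170, 198 and 245 CPM against 82.5, 101 and 126 CPM (0.97 ± 0.10, adjusted p = 7.86e-05). The trypsin gene prss1 was at 460, 515 and 592 CPM against 231, 294 and 335 CPM (0.87 ± 0.09, adjusted p = 9.01e-05). Neither gene overlapped between groups. Chymotrypsinogen (ctrb1, 0.79), carboxypeptidase (cpa5, 0.73) and amylase (amy2a, 0.48) genes were higher too, and endou2 was the 1 member that was lower (-0.91). The endocrine side of the pancreas differed less: of 19 islet genes, gcga, the glucagon precursor, was higher (0.80 ± 0.19, adjusted p = 0.0124), and no other was called. Without glucose 4, 8 islet genes were called higher. The insulin gene ins was at 21.3, 25.8 and 31.2 CPM against 19.8, 26.7 and 33.6 CPM, with overlap (adjusted p = 0.988).

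Intestinal genes were higher in 24 of 54 cases and lower in 1, with a median of 0.24. Their sums overlapped, at 11100 to 12600 CPM in the FFA pools and 9350 to 12400 CPM in the glucose pools. The brush border amino acid transporter slc6a19b was at 16, 18 and 19.6 CPM against 5.8, 7.62 and 10.2 CPM, 2.23-fold higher in the FFA pools (1.15 ± 0.12, adjusted p = 6.92e-05). The peptidase gene anpepb (1.29), the peptide transporter slc15a1b (0.99) and the ileal bile acid binding protein fabp6 (0.91) were higher as well. The chitobiase gene ctbs, which trims chitin fragments and glycans in the lysosome, was at 0.803, 1.77 and 2.98 CPM against 3.06, 4.93 and 6.11 CPM and was the 1 lower member (-1.31 ± 0.26, adjusted p = 0.00466).

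In the liver list 25 of 84 genes were higher (29.8%) and 8 lower (9.52%). The summed level of the list did not follow, at 24100 to 27700 CPM in the FFA pools, inside the glucose range of 21100 to 31300 CPM. Tryptophan dioxygenase, tdo2b, which opens the kynurenine pathway, was at 2.89, 3.27 and 4.45 CPM against 0.358, 0.498 and 0.976 CPM (2.58 ± 0.21, adjusted p = 8.08e-06). The liver fatty acid binding protein gene fabp10a was at 183, 198 and 200 CPM against 118, 134 and 156 CPM (0.53 ± 0.07, adjusted p = 0.000437). The bile acid synthesis enzyme cyp7a1 (0.68), transthyretin (ttr, 0.69) and the thyroxine carrier serpina7 (2.91) were also higher. Ceruloplasmin (cp, -0.95), selenoprotein P (selenop, -0.70) and transferrin (tfa, -0.45) were lower. Without glucose 4 the number of lower liver genes was 20, and without FFA 2 or glucose 3 it was 5. Outside the list, leap2 was among the 12 largest decreases. This hepatic antimicrobial peptide gene, whose mammalian product blocks the ghrelin receptor, was at 8.29, 9.54 and 15.2 CPM against 22.2, 29.4 and 32.8 CPM (-1.43 ± 0.15, adjusted p = 6.56e-05).

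**Figure D4:**
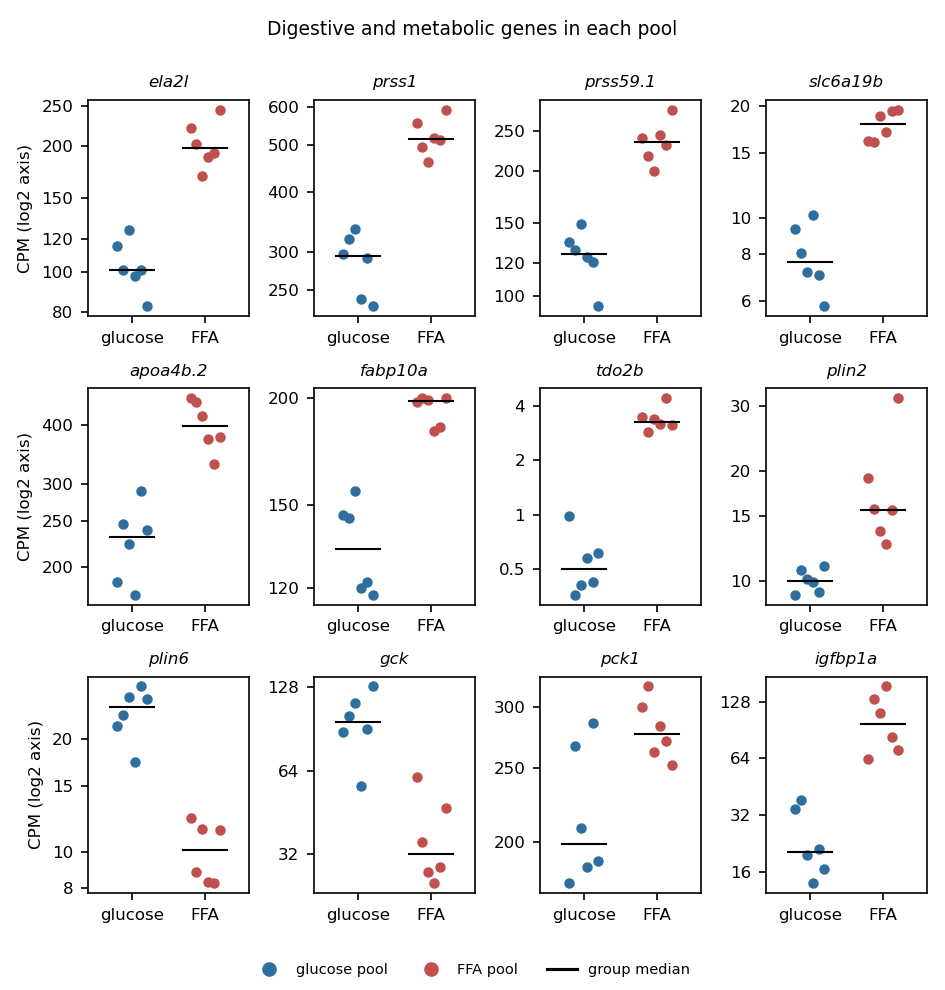
CPM of 12 digestive and metabolic genes in each pool, on log2 axes that do not start at 0. Points are pools (blue glucose, red FFA) and bars are group medians. The pancreatic and intestinal genes of the top row and tdo2b separate the groups, while gck and pck1 overlap.

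Genes that handle lipid showed a mixed pattern. Of 51 transport and storage genes, 15 were higher (29.4%) and 8 lower (15.7%), against 8.78% and 9.75% of all genes tested. Their median was 0.10. The number higher was 9 without glucose 1, without glucose 6 or without FFA 1 and FFA 6 together, and the number lower was 4 without any 1 of FFA 1, FFA 4, glucose 2, glucose 3 or glucose 5, and 5 without FFA 3 or glucose 6. The apolipoprotein gene apoa4b.2, a component of intestinal and yolk lipoproteins, was at 331, 397 and 455 CPM against 175, 232 and 289 CPM (0.82 ± 0.12, adjusted p = 0.000571). The droplet coat gene plin2, which rises with stored lipid in most vertebrate cells, was at 12.6, 15.7 and 31.6 CPM against 9.17, 9.99 and 11 CPM (0.84 ± 0.19, adjusted p = 0.00919). FFA 6 was the highest pool. A further coat gene, plin6, a fish perilipin found on the carotenoid droplets of pigment cells, was lower, at 8.25, 10.1 and 12.3 CPM against 17.4, 24.4 and 27.6 CPM (-1.22 ± 0.13, adjusted p = 9.14e-05).

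Fatty acid oxidation genes were lower in 10 of 48 cases (20.8%) and higher in 5 (10.4%). With the share of reads outside genes as a covariate 11 were higher and 11 lower, and with the replicate block as well 8 were higher and 4 lower. The count of lower genes was 4 without FFA 4 or FFA 5 and 5 or 6 without FFA 3, glucose 2, glucose 3, glucose 5 or glucose 6. The trifunctional protein gene hadhaa was lower (-0.41 ± 0.06, adjusted p = 0.00103), as was the carnitine transferase gene cpt1b, at 37.2, 41.1 and 43.7 CPM against 43.8, 44.6 and 52.4 CPM (-0.20 ± 0.06, adjusted p = 0.0413). That call was lost in 7 of the 12 fits that left out 1 library. The uncoupling protein genes ucp1 (0.73) and ucp3 (0.61) were higher. Of 31 lipogenesis genes 4 were higher (12.9%) and 1 lower (3.23%). Of 28 cholesterol synthesis genes 3 were higher (10.7%) and 1 lower (3.57%), with 22 negative fold changes and a median of -0.10. The number lower was 6 without FFA 6, and 5 with DESeq2 or without FFA 1 and FFA 6 together. Summed over the list, the FFA pools held 1280 to 1760 CPM and the glucose pools 1470 to 1870 CPM. The higher genes were insig1 (0.51) and ldlra (0.51), which respond to sterols, and tm7sf2 (0.42), a sterol reductase, and the lower one was dhcr7 (-0.47), which makes cholesterol from its last precursor.

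For glucose handling, glycolytic genes were lower in 10 of 36 cases (27.8%) and higher in 4 (11.1%), or higher in 11 without glucose 4. The glucokinase gene gck, which phosphorylates glucose in liver in proportion to its supply, was at 25.1, 32 and 60.9 CPM against 56.5, 95.6 and 129 CPM. It was 2.57-fold lower in the FFA pools (-1.36 ± 0.23, adjusted p = 0.00161), with the highest FFA pool above the lowest glucose pool. Muscle-type glycolytic genes pgam2 (-0.72), pfkma (-0.47) and ldha (-0.42) and the muscle glycogen phosphorylase pygma (-0.70) were lower, while pfkfb3, whose product raises the activator of phosphofructokinase (0.77), and aldoca (0.95) were higher. The gluconeogenic gene pck1 was near the threshold, at 252, 277 and 319 CPM against 177, 199 and 286 CPM (0.36 ± 0.12, adjusted p = 0.0483), and lost its call in 8 of the 12 fits that left out 1 library. Of 20 glucose transporter and arrestin genes, 6 were higher (30%) and 2 lower (10%). The sodium-coupled transporter slc5a2 was higher (0.89 ± 0.15) and the hepatic carrier slc2a2 was lower (-0.44 ± 0.12, adjusted p = 0.0196).

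Insulin-like growth factor signalling was marked by its binding proteins. The gene igfbp1a, whose product sequesters IGF and which fasting, hypoxia and glucocorticoids induce, was at 63.7, 97.1 and 154 CPM against 13.9, 20.5 and 38.4 CPM. It was 4.25-fold higher in the FFA pools (2.09 ± 0.28, adjusted p = 0.000406), without overlap. Its copy igfbp1b was at 2.34, 3.32 and 4.61 CPM against 0.305, 0.65 and 0.93 CPM (2.38 ± 0.22, adjusted p = 2.71e-05). Among 42 insulin and IGF genes 7 were higher (16.7%), including the mTORC1 inhibitor ddit4 (0.90) and trib3 (0.52). Without glucose 4 the number higher was 14. The count for the hypoxia list was 6 of 38 higher (15.8%) and 2 lower (5.26%), against 8.78% and 9.75% of all genes tested.

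Appetite genes, the subject named in the title of the series, showed few differences between the 2 groups. A change common to both treatments would not appear in this comparison. Of 7 peptides that stimulate feeding, edgeR called 0, limma-voom 0 and DESeq2 1, and 1 had an unadjusted p under 0.05. The neuropeptide gene npy, at 2.69, 3.12 and 3.53 CPM against 2.75, 2.92 and 3.25 CPM, overlapped (adjusted p = 0.662). For agrp the groups overlapped, at 4.4, 5.1 and 5.77 CPM against 3.43, 4.72 and 5.75 CPM (0.11 ± 0.14, adjusted p = 0.618). Of 17 suppressing peptides 2 were higher (11.8%, against 8.78% of all genes tested). They were adcyap1a, the PACAP precursor (0.64 ± 0.13, adjusted p = 0.00429), and nucb2a, the nesfatin precursor (0.15 ± 0.05). The melanocortin precursor pomca (-0.14, adjusted p = 0.616), cart4 (-0.04, adjusted p = 0.878) and the gut peptide pyyb (0.55, adjusted p = 0.0704) were not called. The leptin receptor gene lepr was higher (0.21 ± 0.05, adjusted p = 0.0127). Leptin itself was too scarce to test. The gene lepb had 35 counts over the 6 FFA pools and 1 over the glucose pools. The ratio was 34.8, with a 95% counting interval from 5.84 to 1412 that covers counting error only. From FFA 1 to FFA 6 the counts were 1, 4, 1, 11, 12 and 6. FFA 1 and FFA 3 thus had 1 count each, as did glucose 6.

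Pigment and skeletal genes also differed. Of 19 melanin genes 10 were higher, with a median of 0.39; the melanosome protein gene pmela was at 133, 162 and 201 CPM against 97, 109 and 125 CPM (0.55 ± 0.10, adjusted p = 0.00205). Cartilage and bone genes were lower in 8 of 38 cases (21.1%, against 9.75% of all genes tested). Their sums did not overlap, at 18000 to 20400 CPM against 22200 to 26600 CPM. The cartilage collagen col11a1a was at 1100, 1160 and 1270 CPM against 1480, 1650 and 1960 CPM (-0.52 ± 0.07, adjusted p = 0.000354). Lens crystallin genes were lower in 6 of 49 cases (12.2%, against 9.75% of all genes). Their median was -0.38, and 46 of the 49 had a negative fold change. The number lower was 1 without FFA 3, 3 without FFA 5, 10 without glucose 1 and 11 with DESeq2. Photoreceptor genes depended on a single library: with all 12 libraries 0 of 60 were called higher by edgeR, 1 by DESeq2 and 1 by limma-voom, and 3 had an unadjusted p under 0.05, but 41 were called higher without glucose 4, whose summed photoreceptor level of 10900 CPM compared with 2130 to 3870 CPM in the other glucose pools and 3240 to 8020 CPM in the FFA pools. For 70 neuron and synapse genes the count went from 1 to 25 in the same way. Without glucose 4, FFA 4 and FFA 5 together, 18 photoreceptor genes and 6 neuron and synapse genes were called higher. With the share of reads outside genes as a covariate, 6 neuron and synapse genes were called lower, and with the replicate block as well 5.

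Blood and ion transport genes changed in part. Of 38 erythrocyte genes 9 were lower (23.7%) and 5 higher (13.2%), with a median of -0.07. The number higher was 2 without glucose 1, and 3 without any 1 of FFA 1, FFA 3, FFA 4, FFA 5, glucose 3, glucose 5 or glucose 6. Their summed level was 2290 to 2820 CPM in the FFA pools and 2500 to 3390 CPM in the glucose pools. The gene alas2, for the first enzyme of haem synthesis in red cells, was lower, at 43.9, 52.1 and 72.3 CPM against 73.1, 96.8 and 105 CPM (-0.71 ± 0.13, adjusted p = 0.00295), as were the embryonic globin genes hbae3 (-0.46) and hbbe2 (-0.49). The mitochondrial glycine carrier slc25a38a, which feeds haem synthesis, was higher (1.81 ± 0.27). Of 42 ionocyte genes 11 were higher (26.2%) and 1 lower (2.38%), against 8.78% and 9.75% of all genes tested. The sodium chloride cotransporter slc12a10.2 was at 62.4, 71.1 and 77.3 CPM against 36.1, 40.7 and 48 CPM (0.78 ± 0.08, adjusted p = 5.59e-05). The ammonia channel rhcgl1 was higher (1.86 ± 0.28). The lower member of that list was pth2, which encodes a brain neuropeptide that in zebrafish follows the presence of other fish (-0.89 ± 0.12, adjusted p = 0.00035). No other member of the list was called lower. The aquaglyceroporin aqp10a, a channel for water and glycerol, was higher (1.58 ± 0.14).

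Some of the largest fold changes belonged to genes nearly absent from the glucose pools. The P450 gene cyp2p9 was at 27.6, 36.4 and 47.8 CPM in the FFA pools and at 0.204, 0.306 and 0.592 CPM in the glucose pools (6.68 ± 0.21, adjusted p = 7.55e-10). Its tandem copies cyp2p8 (1.70) and cyp2p7 (1.39) were higher, while cyp2p6 (0.19, adjusted p = 0.115) and cyp2p10 (-0.28, adjusted p = 0.352) were not called. The clustered protocadherin gene pcdh1g22, of the family that gives neurons their surface identity, had 885 counts in the FFA pools and 2 in the glucose pools, a ratio of 440 with a counting interval from 121 to 3635. For pcdh1g30 there were 994 counts and 4, a ratio of 247 with an interval from 96.1 to 907.8. The brush border protease mep1a.2 had 252 counts and 9, a ratio of 27.8 with an interval from 14.4 to 61.5. These intervals are at 95% and cover counting error only.

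Further members of this kind were ggact.2, a cyclotransferase copy at 12.7, 19.2 and 25.7 CPM against 0, 0.967 and 3.9 CPM (3.72 ± 0.56, adjusted p = 0.000756), and the helicase gene ddx43, at 6.57, 10.9 and 14.9 CPM against 0.515, 0.895 and 1.32 CPM (3.64 ± 0.24, adjusted p = 7.24e-07). In the opposite direction cyp2x8 was at 0.216, 0.443 and 0.964 CPM against 2.02, 2.4 and 2.76 CPM (-2.19 ± 0.24, adjusted p = 0.000101), and the yolk precursor gene vtg1 at 1.15, 1.73 and 2.18 CPM against 5.09, 5.77 and 8.85 CPM (-1.86 ± 0.18, adjusted p = 3.45e-05). Many such genes have near-identical copies. Reads of the hsp70, cyp2p, ggact, mep1a, he1, protocadherin, vitellogenin, trypsin, crystallin and globin copies may be split between members by the counting, so each is uncertain as a single gene.

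**Figure D5:**
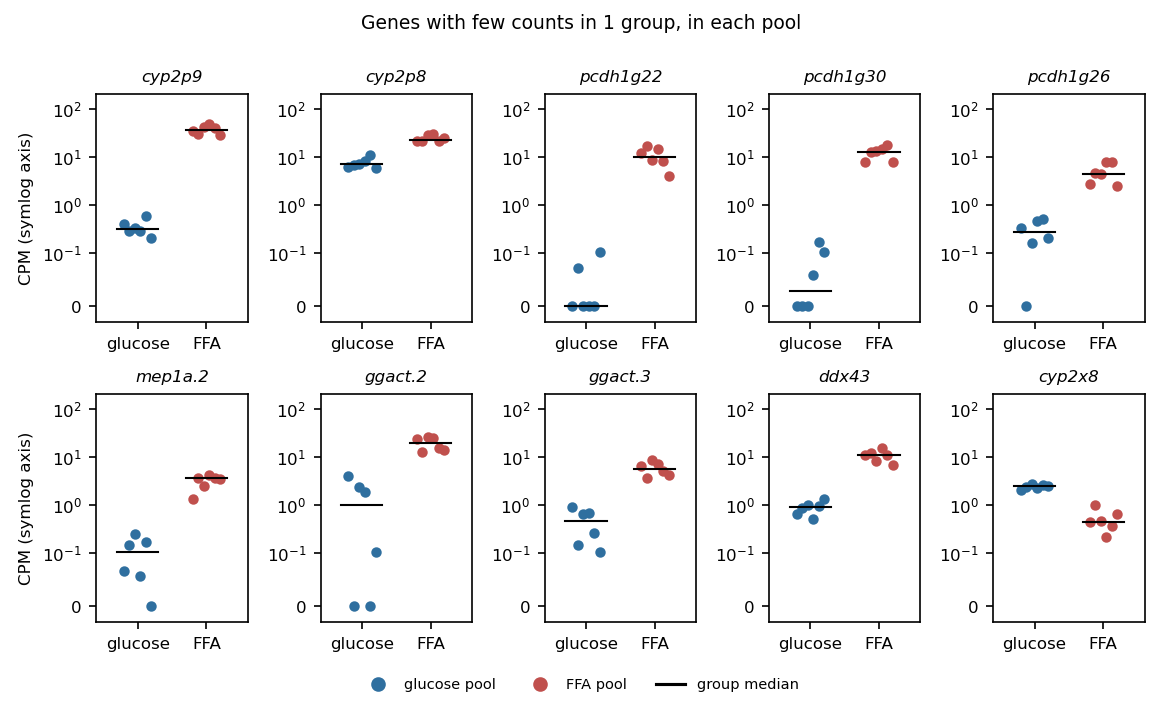
CPM of 10 genes in each pool, on a symlog axis that is linear below 0.1 CPM. All but cyp2p8, at 5.7 to 10.6 CPM in the glucose pools, have few counts in 1 group. Points are pools (blue glucose, red FFA) and bars are group medians. In 9 of the genes the glucose pools are the low ones, and cyp2x8 is low in FFA.

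Several of these genes lie next to each other. In the gene order of the RefSeq assembly GRCz12tu, to which 14652 of 15316 names could be matched, the 190 matched genes called at 2-fold or more formed 14 adjacent pairs, and 13 of the pairs moved in the same direction. Of the 190 genes 153 were higher, so 68.5% of all pairs among them share a direction, and most of the adjacent pairs are tandem copies. They included cyp2p7 to cyp2p9, the 3 ggact copies, hsp70.1 to hsp70.3, both mep1a and both he1 genes, and the pairs nr1d4b with calcoco1b (1.28), tk1 with syngr2b (1.50), and zgc:153968 (1.95) with tcap (1.09). The pair cfhl2 (-1.31) and cfhl3 (1.37) went opposite ways.

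The 5 control pools, scaled together with the other 12 and used for no test, give the level of these genes without either treatment. For per2 they ranged from 58.1 to 82.4 CPM, between the FFA and glucose pools. For ddb2 (9.6 to 13.6 CPM), prss1 (555 to 791 CPM) and cyp2p9 (14.7 to 50.5 CPM) the control range overlapped that of the FFA pools and lay apart from the glucose pools. Controls lay above the pools of both groups for ela2l (287 to 398 CPM) and slc6a19b (21.1 to 28.7 CPM). Immediate early genes varied. Controls for junba (14.4 to 31.6 CPM) and egr1 (46.8 to 76.4 CPM) overlapped the FFA pools and lay above the glucose pools. Those for atf3 (23 to 30.6 CPM) lay within the glucose range and below the FFA pools, and those for dusp1 (77 to 130 CPM) overlapped both groups. For hsp70l (0.436 to 1.16 CPM), mmp9 (9.47 to 15.2 CPM) and il1b (0.234 to 0.795 CPM) it overlapped the glucose range and lay below the FFA pools. For ncf1 the controls, at 10.6 to 13.3 CPM, overlapped the FFA pools and lay above the glucose pools. For ctss2.1, at 6.02 to 10.8 CPM, they overlapped both groups. For gck the controls, at 12.5 to 40.3 CPM, overlapped the FFA pools, and for igfbp1a, at 22.3 to 34.3 CPM, they lay within the glucose range. For pomca, at 10.3 to 14.5 CPM, they lay above the FFA pools and overlapped the glucose pools.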

How the data were processed

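Total RNA of each pool was made into stranded mRNA libraries and sequenced in pairs on a NextSeq 500, per the labels' protocols. The authors deposited raw counts per gene symbol and library. STAR and DESeq2 are named in the submitters' processing notes, with the build danRer7; how reads were counted per gene is not given in the sources. Counts were used as deposited, without the no-feature and ambiguous lines. The no-feature share of each library is given in the report. Genes passing filterByExpr (minimum count 10) in the 12 libraries were tested with edgeR 4.0.16 in R 4.3.3 (TMM scaling, quasi-likelihood F-test, no covariate), with Benjamini-Hochberg adjustment over all 13398 genes and a threshold of 0.05. Standard errors were derived from that test, as the absolute log2 fold change divided by the square root of the F statistic. Library pairs within a group differed by more than counting noise (chi-square per degree of freedom 4.46 to 56.5 over 30 pairs).

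Members and lists were chosen with earlier results of these data known. Named genes are the 12 largest changes in each direction (called, not overlapping, mean of at least 1 CPM, with a symbol), up to 3 members by smallest p from each list with at least 3 called, and a fixed panel. For the largest changes a lack of overlap was thus set by the choice and is no separate result. Members of the 51 lists that are given with a fold change alone were picked after their values were seen. Alternatives were DESeq2 1.42.0, limma-voom (limma 3.58.1), other scalings and filters, a fit of all 17 libraries, the replicate number as a block, the no-feature share as a covariate, and leaving out libraries. The scripts were tested on simulated counts.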

Additional observations from a re-analysis of the deposited data

Results flagged for a closer look

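The FFA or the glucose values of a named gene, or of the no-feature share, made up each group of 6 libraries. In 18 of the 298 groups examined, 1 library lay far from the other 5, by its gap to the nearest against the whole range. Chance flags about 1 in 20 groups. The values are given without explanation.

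Among the FFA pools, FFA 1 was highest for ucp1 (277 CPM, next 256), slc25a38a (9.75, next 6.04) and ctsl.1 (42.5, next 29.6), and lowest for dusp1 (119, next 200). FFA 6 was highest for cry5 (6.03, next 3.75) and plin2 (31.6, next 19.1), and lowest for hsf2 (48.9, next 54.9) and he1.2 (1.35, next 7.45). FFA 4 was highest for atf3 (79.9, next 60.8) and lowest for vim (129, next 140).

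Among the glucose pools, glucose 1 was highest for vtg1 (8.85 CPM, next 6.15) and lowest for cry1bb (37, next 41.3). It was also highest for lepa (0.065, from 1 count, with the other 5 at 0). Glucose 5 was highest for ahsa1a (57.2, next 40.5) and hsp90aa1.1 (223, next 181). Glucose 6 was highest for smyhc3 (13.4, next 10.1) and lepb (0.102, from 1 count, with the other 5 at 0). Glucose 3 was highest for ca15a (69.4, next 60).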

How the results depend on the processing

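The number of genes called, 2483, ranged from 1737 (without FFA 4) to 3910 (without glucose 4) when 1 library was left out. The number higher ranged from 890 to 2074 and the number lower from 847 to 1836, with the same libraries at the ends. With the no-feature share as a covariate 1778 genes were higher, and grouping by the treatment tag left 381 called, with the opposite sign for all 2483 genes called by title. Replicate numbers did not pair the libraries (1 of 6 pairs correlated above 0.1, range -0.144 to 0.536); with the replicate number as a block 2015 genes were called. The causes were not tested. DESeq2 called 2846, limma-voom 2432, RLE scaling 2469, library size alone 2452, no filter 2452 and the fit of all 17 libraries 2299. With the covariate and the replicate block together 1844 were called, and without FFA 1 and glucose 1 together 1676. In 2 alternatives chosen after seeing the data, 2222 were called without glucose 4, FFA 4 and FFA 5, and 2562 without FFA 1 and FFA 6.

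Of the 140 named genes called, 128 stayed called in every alternative that kept the titles as groups and tested them. In those alternatives 0 of the 140 changed sign. Genes with a mean under 5 CPM were not tested with that filter. By tag all 140 had the opposite sign and 56 were called. The exceptions were ctbs, got2b, mogat2, cryba1l2, crybb1, vim, myl7, hspb7, gcga, pck1, cpt1b and slc2a2. Apart from the fixed panel, the 140 were named for the size of their change or their small p. The 128 is therefore not a measure of how stable all calls were. Of all 2483 genes called, 1469 stayed called with the covariate and the replicate block together, and 1597 without FFA 1 and glucose 1 together. With DESeq2, 2443 of them stayed called. The sign changed for ins and cart4, which were not called. For ins the log2 fold change was 0.03 with library size alone, 0.01 with a minimum of 5 CPM or limma-voom, 0 with the replicate block, 0.13 with the covariate, 0.1 with both, 0.06 without the 3 libraries, and -0.07 to 0.08 when 1 library was left out. For cart4 it was 0.1 without FFA 1 and glucose 1, and -0.09 to 0.06 when 1 was left out. The gene pyyb passed the threshold with DESeq2 (adjusted p = 0.0425) and in 2 of the fits that left out 1 library. The difference in the no-feature share ranged from 0.763 to 2.07 when 1 library was left out and was 1.26 without ambiguous counts. Over the alternatives grouped by title, members higher in the FFA pools numbered 16 to 27 for immediate early genes, 14 to 26 for inflammation, 10 to 20 for macrophages and neutrophils, 16 to 20 for exocrine pancreas, 16 to 29 for intestine, 18 to 40 for liver and 6 to 12 for melanin, 6 to 12 for heat shock, 5 to 11 for fatty acid oxidation and 2 to 6 for erythrocytes. Members lower numbered 9 to 11 for light-induced genes, 21 to 38 for DNA replication, 12 to 33 for mitosis, 7 to 18 for heat shock, 4 to 13 for fatty acid oxidation, 0 to 6 for cholesterol synthesis and 6 to 12 for erythrocytes. Genes with few counts in 1 group are limited by depth, as their counting intervals show.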
